A study of Mus musculus with 9 samples.

Results

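The C/EBP transcription factors (Cebpa, Cebpb, Cebpd, Cebpe, Cebpg and the C/EBP-named Cebpz) and the Tribbles pseudokinases (Trib1, Trib2 and Trib3) were followed in myeloid progenitors that express the NUP98-HOXA10hd fusion gene (NA). The members were chosen by name, 9 of the 37980 mouse genes counted, and 8 of the 9 had enough reads for the test. Trib1 rose 5.75-fold in NA MPs, Cebpd rose slightly, and Cebpe and Trib2 fell slightly. Of these only Trib1 also passed with DESeq2, and Trib1, Cebpe and Trib2 each lost their call in some fits that left out a library. Cebpa, the most abundant member per kilobase of annotated exon, was at a fold change of 0.969 and did not pass the test.

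C/EBP proteins are basic leucine zipper (bZIP) factors that bind DNA as dimers with each other and with related bZIP factors. In bone marrow, Cebpa is needed for the step into granulocyte and monocyte progenitors, Cebpb for granulocyte production under stress, and Cebpe for late granulocytes and eosinophils. Trib1 and Trib2 are scaffolds without normal kinase activity that bring C/EBP alpha protein to the ubiquitin ligase COP1, which marks it for degradation, and raised levels of either drive acute myeloid leukaemia in mice. These libraries measured RNA, so the amount of C/EBP protein was not observed.

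The data are RNA-seq libraries of 4 NA MPs and 5 WT MPs, all of C57BL/6 strain, with 100000 Lin-ckit+Sca1- bone marrow cells sorted for each. NA MPs were Tdtomato+ cells from irradiated mice that had received multipotent progenitors (MPPs) of NA LSL/+; Vav-Cre mice, in which Vav-Cre switches on the fusion gene at the Rosa26 locus in blood cells. WT MPs were CD45.2+ cells from mice that had received WT MPPs, and helper bone marrow cells were given along with MPPs. The labels place both sorts 3 months after transplantation and the study's methods at a later time. In other passages the study gives recipients as CD45.2+ and donor WT cells as CD45.1+, which leaves unclear from which of the mice the WT MPs came. No label says whether the samples were separate mice, so p-values measure the spread between these samples, which may be technical.

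Totals ran from 5557720 to 8106140 reads per library, and 3 reads, taken as the floor of detection by counting error alone, were worth 0.370 to 0.540 CPM. Nup98, part of the fusion, was at 967 ± 83.3 normalized counts in NA MPs and 603 ± 30.1 in WT MPs, and Hoxa10 at 130 ± 17.9 and 8.10 ± 2.58 (SD, n = 4 and 5). A normalized count is a read count scaled to the mean effective library of 6702642 reads. All 6 markers of sorted myeloid progenitors were detected in all 9 libraries, and 4 of them differed between the groups. Fcgr3, which encodes the CD16 antigen that marks granulocyte and monocyte progenitors, fell from 1192 ± 42.0 to 804 ± 37.7 normalized counts (log2 -0.57), and Cd34 (log2 0.12), Ptprc (0.26) and Mpo (0.06) rose. Kit, at 2998 ± 136 in NA MPs and 3060 ± 42.8 in WT MPs, and the stem cell marker Ly6a, at 21.6 ± 2.84 and 18.4 ± 5.21, did not pass the test. Of 11953 genes tested, 34.1% passed an adjusted p of 0.05 (edgeR's quasi-likelihood test, Benjamini-Hochberg adjustment), 17.9% higher and 16.3% lower in NA MPs.

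Trib3 and Trib2 are the Tribbles genes for which RefSeq promoter sequence was at hand, and Trib3 is shown because it was the single member with a match to a motif searched. The capitals mark a match, on the other strand, to the C/EBP-ATF element TGATGNAA, through which ATF4 and C/EBP-related dimers are known to switch on stress genes. Each line runs 5′ to 3′ on the gene's strand, from 250 bases before to 30 after the RefSeq start (GRCm38.p6). The Trib3 stretch is chr2:152344031-152344310 on the minus strand and the Trib2 stretch chr12:15816756-15817035 on the minus strand.
Trib3: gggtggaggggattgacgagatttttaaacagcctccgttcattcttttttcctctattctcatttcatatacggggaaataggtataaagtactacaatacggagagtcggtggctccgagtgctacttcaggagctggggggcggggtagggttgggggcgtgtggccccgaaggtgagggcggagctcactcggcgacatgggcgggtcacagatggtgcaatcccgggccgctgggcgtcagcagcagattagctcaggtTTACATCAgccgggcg
Trib2: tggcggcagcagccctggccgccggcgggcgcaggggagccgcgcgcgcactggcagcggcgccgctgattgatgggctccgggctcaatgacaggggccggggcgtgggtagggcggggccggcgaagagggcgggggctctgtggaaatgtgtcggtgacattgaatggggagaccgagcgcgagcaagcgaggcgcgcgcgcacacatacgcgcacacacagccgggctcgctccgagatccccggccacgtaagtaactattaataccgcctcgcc

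The Trib3 match begins 14 bases after the start, and 3.97% of all 32851 RefSeq promoter windows hold this element. Windows were at hand for 5 members (Cebpa, Cebpb, Cebpg, Trib2 and Trib3). No other match was found in them on either strand to the C/EBP palindrome TTGCGCAA (in 0.183% of all windows), the AP-1 site TGANTCA (7.81%), the cyclic AMP element TGACGTCA (1.79%) or the CArG box bound by serum response factor (1.63%). None of these motifs is contained in another. The Cebpb window was among the most GC-rich, with 80.7% G and C, and 99.2% of all windows were lower. The Trib3 window had 58.3%, beside a median of 52.7% over all windows.

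Cebpa, on chromosome 7 from 35119293 to 35121928 on the plus strand (GENCODE M21, GRCm38), was the member with the highest level per kilobase of exon. It had 1314, 1457, 1316 and 1330.2 normalized counts in NA MP replicates 1 to 4, and 1439, 1384, 1458, 1349.7 and 1368 in WT MP replicates 1 to 5. The groups overlapped, with NA MP replicate 2 level with the highest WT libraries and the other NA libraries below all 5. The log2 fold change was -0.05 (95% interval -0.12 to 0.02, adjusted p = 0.339 from edgeR), so a fall of more than 0.12 on the log2 scale lies outside the interval.

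Cebpb, which cytokine signals induce, lies on chromosome 2 from 167688915 to 167690418 on the plus strand and has a single exon. It had 162, 222, 225 and 239 normalized counts in NA MPs and 188, 208, 193, 203 and 182 in WT MPs. NA MP replicate 1 was the lowest of all 9 libraries, while the other NA libraries were above all WT libraries. The log2 fold change of 0.13 ± 0.08 (SE) did not pass the test (adjusted p = 0.206 from edgeR), and without NA MP replicate 1 it was 0.23 with an adjusted p of 0.0123.

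Cebpd, an acute phase factor induced by STAT3, rose in NA MPs. It lies on chromosome 16 from 15887286 to 15891031 on the plus strand. NA MPs had 227, 237, 240 and 216 normalized counts and WT MPs 210, 188, 217, 173 and 187. The lowest NA library was just under the highest WT library, and the other NA libraries were above all WT libraries. The fold change was 1.18 (log2 0.24 ± 0.07 SE, adjusted p = 0.00816 from edgeR), and the exact two-sided permutation test over the 126 ways to draw 4 of 9 libraries gave p = 0.0317. Cebpd passed the edgeR test in all 9 fits that left out a library and missed the threshold with DESeq2 (adjusted p = 0.0678).

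Cebpe, the factor of late granulocyte genes, fell in NA MPs. It lies on chromosome 14 from 54710360 to 54712174 on the minus strand. NA MPs had 276, 396, 345 and 322 normalized counts and WT MPs 391, 394, 394, 374 and 370. The WT libraries were close together, NA MP replicate 2 was above all of them, and the other NA libraries were below all of them. The fold change was 0.874 (log2 -0.20 ± 0.07 SE, adjusted p = 0.0202 from edgeR), and the exact permutation test gave p = 0.0556. The call was lost without NA MP replicate 1 (adjusted p = 0.121), NA MP replicate 4 (0.0749) or WT MP replicate 2 (0.0540), and with DESeq2 (0.0585).

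Cebpg, a short C/EBP that pairs with other bZIP factors and has no activation domain of its own, sits 62.72 kilobases from Cebpa on chromosome 7, from 35046422 to 35056573 on the minus strand. It had 363 to 403 normalized counts in NA MPs and 335 to 401 in WT MPs. Its log2 fold change of 0.03 (95% interval -0.08 to 0.14) did not pass the test. Cebpz shares the CCAAT-binding name but is no bZIP factor, and its relatives act in ribosome assembly. On chromosome 17 from 78919006 to 78937066 on the minus strand, it had 862 to 942 normalized counts in NA MPs and 863 to 972 in WT MPs, with a log2 fold change of -0.05 (95% interval -0.13 to 0.03).

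Trib1 rose more than any other member and was the only tested member whose groups did not overlap, where 26.4% of all tested genes did not overlap. It lies on chromosome 15 from 59648350 to 59657099 on the plus strand. NA MPs had 38.9, 37.8, 153 and 140 normalized counts and WT MPs 6.52, 10.3, 19.5, 18.1 and 27.2. NA MP replicates 3 and 4 were far above replicates 1 and 2, and even these were above the highest WT library. WT MP replicate 1 held 6 reads of Trib1, so the low end rests on few reads. The fold change was 5.75 (log2 2.52 ± 0.65 SE, adjusted p = 0.0200 from edgeR), and the exact permutation test gave p = 0.00794, the smallest it can give for 4 against 5. The log2 fold change stayed between 2.21 and 2.79 in the fits that left out a library, and the adjusted p rose to 0.0573 without NA MP replicate 4 and 0.0516 without WT MP replicate 2. DESeq2 gave an adjusted p of 0.000395.

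Trib2 fell in NA MPs. It lies on chromosome 12 from 15791727 to 15816922 on the minus strand. NA MPs had 255, 188, 180.3 and 217 normalized counts and WT MPs 241, 252, 254, 239 and 222. NA MP replicate 1 was the highest of all 9 libraries and the other NA libraries were below all WT libraries, so the groups overlapped. The fold change was 0.867 (log2 -0.21 ± 0.08 SE, adjusted p = 0.0318 from edgeR), while the exact permutation test gave p = 0.111. The call was lost without NA MP replicate 2 (adjusted p = 0.143), NA MP replicate 3 (0.168), WT MP replicate 2 (0.0820) or WT MP replicate 3 (0.0788), and with DESeq2 (0.122).

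Trib3, a stress-induced member known to bind AKT kinases, was near the floor. It lies on chromosome 2 from 152337422 to 152344032 on the minus strand. NA MPs held 1, 0, 1 and 4 reads and WT MPs 2, 4, 6, 3 and 3. In all, 6 reads in NA MPs stood against 18 in WT MPs, a ratio of 0.432 for the totals sequenced (exact 95% interval 0.140 to 1.14, counting error only). Trib3 did not reach the minimum count for the test, had a log2 fold change of -1.14 with an adjusted p of 0.255 in an edgeR fit without that minimum, and no difference was detectable at this depth.

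**Figure D1:**
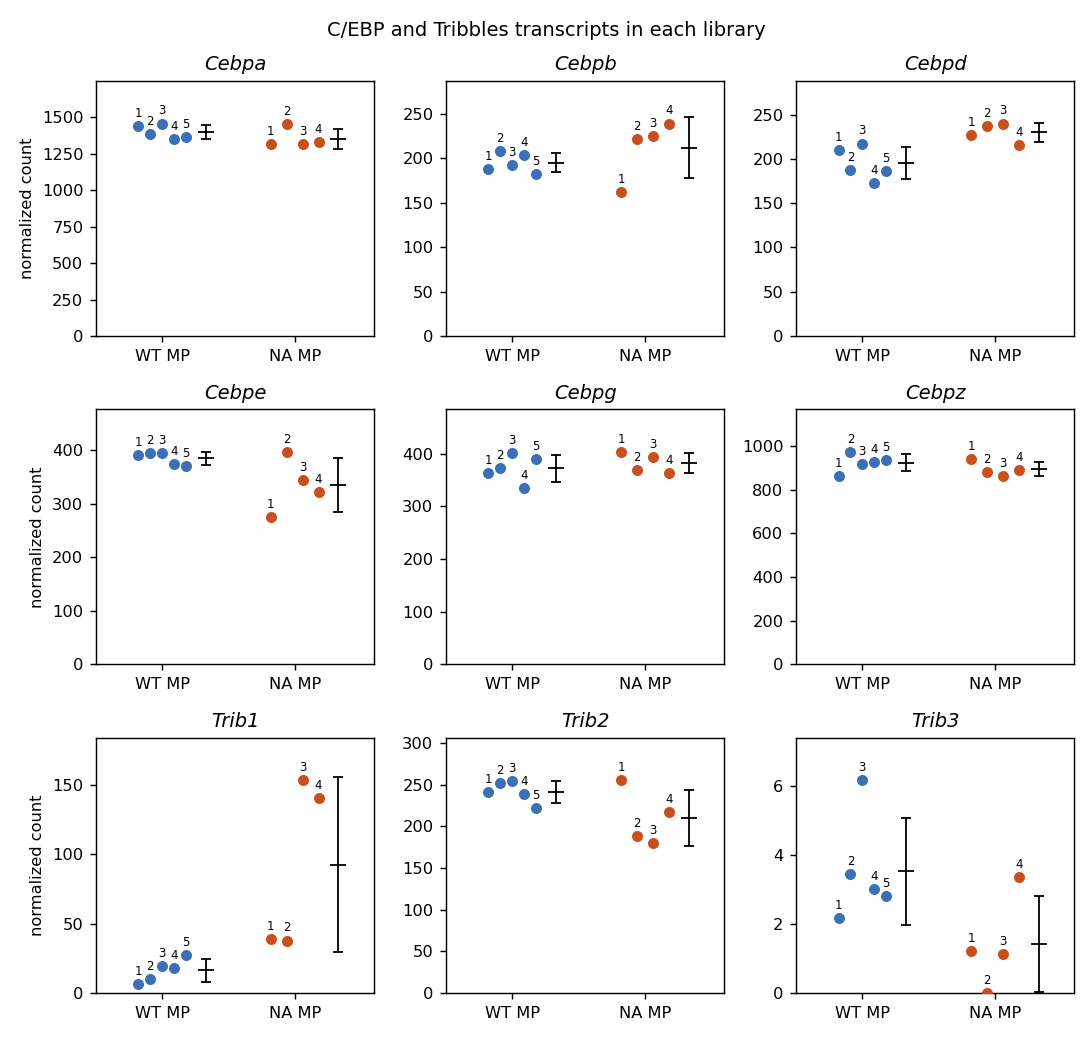
Normalized counts of the 9 members (vertical axis, from 0) in the 5 WT MP and 4 NA MP libraries (horizontal axis), each point a library with its replicate number, and the bar the mean with its SD. The Trib1 points of NA MPs sit at 37.8 and above while WT MPs end at 27.2, and in the other 8 panels the groups overlap.

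Of the 8 members tested, 2 were higher, 2 were lower and 4 did not pass, so that 50% were called beside the 34.1% of all tested genes. Their median log2 fold change was -0.01, beside -0.0011 over all tested genes, where the median size of a change was 0.12. Trib1 was thus the one member with a change far beyond that median, and the changes of Cebpd, Cebpe and Trib2 were each within 0.24 on the log2 scale.

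**Figure D2:**
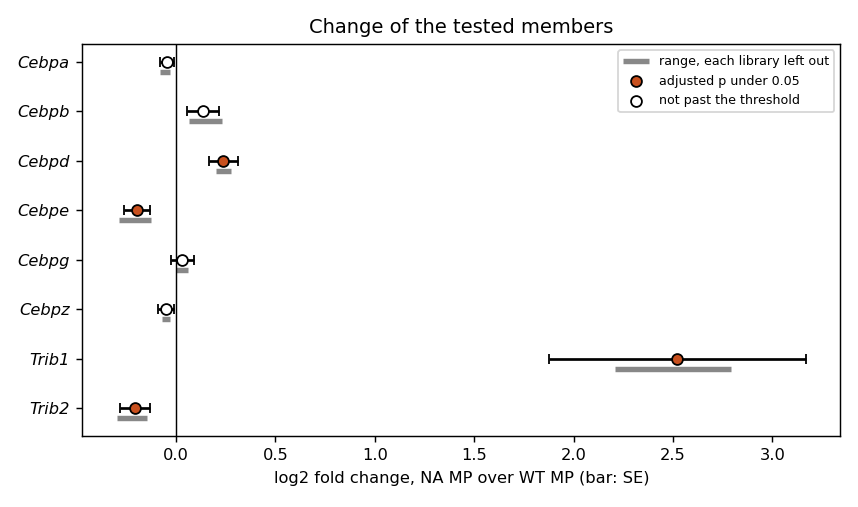
Log2 fold change of NA MPs over WT MPs (horizontal axis) for the 8 tested members, with bars for the SE, filled points for an adjusted p under 0.05 and a grey line for the range of fits that left out a library. Trib1 stands at 2.52, and the other members lie between -0.21 and 0.24.

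Reads that could belong to a neighbour limit some of these values, since whether the counting used strand is not given in the sources used here. Exons of Cebpa, Cebpb, Cebpd, Cebpg and Cebpz overlap exons of other genes in GENCODE M21, and those of Cebpe, Trib1, Trib2 and Trib3 overlap none. Cebpd overlaps Spidr on the opposite strand, a DNA repair gene that fell in NA MPs from 352 to 308 mean normalized counts (log2 -0.19, adjusted p = 0.00898 from edgeR). Cebpd and Spidr thus moved in opposite directions. Cebpb overlaps Tmem189 (log2 fold change 0.02) and Cebpz overlaps Cebpzos (-0.03), and neither passed the test.

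Per kilobase of exon, the levels in WT MPs ran from Cebpa at 531 ± 17.6 normalized counts per kilobase through Cebpe at 310 ± 9.44, Cebpz at 198 ± 8.54, Cebpb at 130 ± 7.23 and Cebpg at 66.2 ± 4.51, down to Trib2 at 55.7 ± 2.99 and Cebpd at 52.1 ± 4.84, and to Trib1 at 2.62 ± 1.30 and Trib3 at 1.66 ± 0.725 (SD, n = 5). Trib2 and Cebpd were neighbours within their spread, as were Trib1 and Trib3, and each other step was wider than the SDs beside it. The length used was that of all annotated exons of a gene merged, from 1241 bases for Cebpe to 6248 for Trib1. Which transcripts were expressed was not examined, so the order between members depends in part on the annotation. In NA MPs the order was the same except that Cebpd, at 61.4 ± 2.94, stood above Trib2 at 48.4 ± 7.80. Trib1 in NA MPs reached 14.8 ± 10.1 per kilobase, still below Trib2 in every NA library.

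The makeup of the C/EBP pool was then read within each library, as the share of each bZIP member in the summed level per kilobase of the 5. Cebpa made up 48.8% in both groups, with 47.0% to 51.9% in NA MPs and 47.9% to 49.3% in WT MPs. Cebpe made up 23.1%, 27.8%, 26.2% and 24.8% in NA MP replicates 1 to 4 and 28.1% to 28.9% in WT MPs, with no overlap. Cebpd made up 5.51% to 6.31% in NA MPs and 4.39% to 5.15% in WT MPs, again with no overlap, and Cebpb 13.3% ± 1.73 and 11.9% ± 0.750. These shares sum to the whole, so a lower share of one member raises the others. They also depend on the merged exon length by which each member was divided.

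Ratios of read counts within a library do not depend on the scaling between libraries. Exact two-sided permutation tests were run on 5 such ratios, with adjustment over the 5. Cebpd to Cebpa was higher in NA MPs by 0.29 on the log2 scale (exact p = 0.00794, adjusted p = 0.0132), with no overlap of the groups. Trib1 to Cebpa was higher by 2.33 and Trib2 to Trib1 lower by 2.50 (adjusted p = 0.0132 for each by the exact test), also with no overlap. Both of these ratios hold Trib1, so they restate its rise and are not separate results. An exact p of 0.00794 is the smallest that 4 against 5 libraries can give. In WT MPs Trib2 had between 8.14 and 37.0 reads for each read of Trib1, and in NA MPs between 1.18 and 6.56. Cebpe to Cebpa was lower, at a mean log2 ratio of -2.02 ± 0.17 in NA MPs and -1.86 ± 0.03 in WT MPs (exact adjusted p = 0.0397), and the groups overlapped. The difference ran from -0.212 to -0.088 when each library was left out and lost its call in 8 of the 9 cases, all but NA MP replicate 2. Cebpb to Cebpa differed by 0.15 with an exact adjusted p of 0.222, and NA MP replicate 1 was again the lowest.

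Genes around the members were read in 8 lists, each against the 34.1% of all tested genes that were called. The lists were chosen with earlier results of these data known, so their shares are descriptions only. The share called was 44.4% for C/EBP epsilon targets of late granulocytes, 50% each for bZIP relatives, Tribbles ligase and clients and integrated stress response genes, 70.0% for regulators upstream of Cebpa, 75.0% for early C/EBP targets, 80.0% for cytokine and CREB inputs and 93.8% for immediate early genes. The shares of 44.4% and 50%, in lists of 9 to 12 tested genes, are near the background. The higher shares take no account of abundance, and in abundant genes small changes passed. Mpo and Elane, at mean normalized counts of 108910 and 21964 in NA MPs, passed at log2 0.06 and 0.08. The lists at 70.0%, 75.0% and 80.0% had median log2 fold changes of 0.10, 0.10 and 0.16. The median size of a change over all tested genes was 0.12.

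The bZIP relatives and partners of C/EBP, among them factors that form dimers with C/EBP proteins, had 5 of 10 tested genes higher and 0 lower in NA MPs, with a median log2 fold change of 0.36. Hlf, a stem cell bZIP factor, rose from 115 ± 6.83 to 185 ± 16.3 normalized counts (log2 0.68), and its relative Tef rose by 0.44. Ddit3, the stress partner of C/EBP known as CHOP, rose from 85.7 ± 6.88 to 116 ± 13.5 (log2 0.44), and its exons overlap those of other genes. Atf4, which switches on Ddit3 and Trib3 under stress, rose by 0.30 on the log2 scale and was named after its value was seen. Atf3 did not reach the minimum for the test, with 4.86, 16.3, 99.2 and 77.8 normalized counts in NA MPs and between 0 and 2.01 in WT MPs.

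Among C/EBP targets of early granulocyte and monocyte progenitors, 8 of 12 were higher and 1 lower, with a median of 0.10. Cd14, the endotoxin co-receptor, rose from 31.7 ± 5.09 to 61.6 ± 10.4 normalized counts (log2 0.96), Lyz2, a lysozyme, by 0.55, and Prtn3, a protease of primary granules, by 0.20. Il6ra, the interleukin 6 receptor, was the gene that fell, from 459 ± 14.3 to 407 ± 21.9 normalized counts (log2 -0.18). Csf3r, Csf1r and Gfi1 did not pass the test. Monocyte and macrophage markers, which share Csf1r with this list, had 4 of 6 tested genes higher and 1 lower, and their summed level was 10472 to 12141 normalized counts in NA MPs and 9709 to 10472 in WT MPs. Their part in these changes was not tested.

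Among C/EBP epsilon targets of late granulocytes, 3 of 9 tested genes were higher and 1 lower, with a median of 0.31. Camp and Ngp, proteins of secondary granules, rose by 0.92 each on the log2 scale, and S100a9, a calprotectin subunit, by 0.61. Camp was at 232, 240.1, 391 and 334 normalized counts in NA MPs and at 110, 170, 161, 176 and 171 in WT MPs, with no overlap. Mmp8, the neutrophil collagenase, fell from 21.8 ± 1.91 to 10.8 ± 5.37 normalized counts (log2 -1.01). Ltf, Lcn2, Cybb, S100a8 and Chil3 did not pass the test. The 4 of 9 called, 44.4%, are near the 34.1% of all tested genes. The late granule calls rested on the settings, with 7 of 9 passing without edgeR's robust option and 1 of 9 at a threshold of 0.01.

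The sum of eosinophil markers was lower in NA MPs, as Cebpe was, and the sum of B cell markers was higher. The 5 eosinophil markers summed to 465, 1107, 845 and 650 normalized counts in NA MP replicates 1 to 4. In WT MPs the sums were 1247 to 1595. Of the 4 tested, Prg2 and Prg3, which encode granule proteins, fell, and Epx and Ear6 did not pass. The sum was mostly Prg2, at a mean of 526 in NA MPs and 1053 in WT MPs. Il5ra, which did not reach the minimum for the test, went the other way. It was at 10.03 to 16.9 in NA MPs and 1.72 to 9.78 in WT MPs, with no overlap. Cebpe in the NA libraries had the same order as the eosinophil sum, with replicate 1 lowest and replicate 2 highest. The 7 B cell markers summed to 567, 1270, 1254 and 872 in NA MPs and to 64.1 to 89.6 in WT MPs, all 6 tested rose, and Ms4a1 was at or near 0, although B220 was among the lineage antigens sorted against. This sum had the same order over the NA libraries as Cebpe, while between the groups it moved opposite to Cebpe. The part of either cell type in the fall of Cebpe was not tested. In sorted cells, fewer cells of a type and less RNA per cell cannot be told apart.

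**Figure D3:**
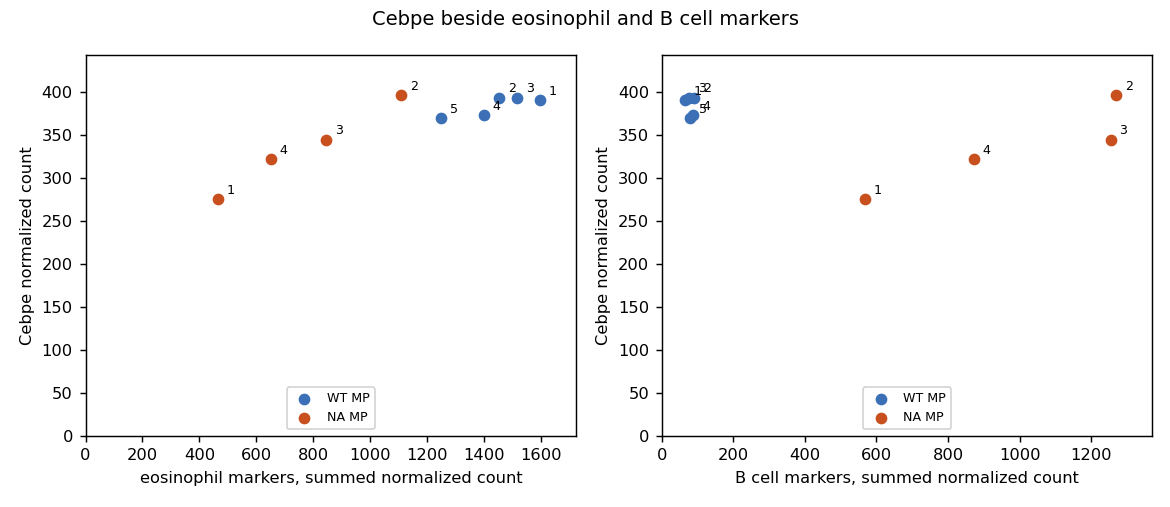
Cebpe normalized counts (vertical axis, from 0) against the summed normalized counts of eosinophil markers (left) and B cell markers (right), each point a library with its replicate number. The 4 NA MP libraries spread from 276 to 396 for Cebpe and from 465 to 1107 for eosinophil markers, and the 5 WT MP libraries from 370 to 394 and from 1247 to 1595.

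Of regulators upstream of Cebpa, 5 of 10 were higher and 2 lower, with a median of 0.10, while Cebpa itself did not pass the test. Erg rose by 0.49, Gata2 by 0.44 and Etv6 by 0.18 on the log2 scale, all factors of stem and early progenitor cells. Tal1, a factor of stem and erythroid cells, fell from 707 ± 30.5 to 495 ± 65.3 normalized counts (log2 -0.52), and Myb fell by 0.09. Between the groups, erythroid markers moved with Tal1, with 6 of 7 lower, beside 16.3% of all tested genes. Their summed level was 2286 to 2941 normalized counts in NA MPs and 4560 to 5245 in WT MPs. Within NA MPs the order differed, as replicate 4 was lowest for Tal1 at 457 and highest for the erythroid sum. Mast cell and basophil markers moved with Gata2 between the groups, with 4 of 5 higher, beside 17.9% of all tested genes. Their sums were 2436 to 2844 in NA MPs and 1392 to 1520 in WT MPs. The part of these cells in the changes of Tal1 and Gata2 was not tested.

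Of the cytokine and CREB inputs to Cebpb and Cebpd, 6 of 10 were higher and 2 lower, with a median of 0.16. Stat3, the signal carrier that induces Cebpd, rose from 933 ± 10.9 to 1138 ± 40.9 normalized counts (log2 0.28), and its exons overlap those of Stat5a, which also rose. Socs3, a STAT3-induced inhibitor of cytokine signals, was at 15.8, 11.2, 34.9 and 32.6 normalized counts in NA MPs and 4.35 to 10.3 in WT MPs (log2 1.57), with no overlap. NA MP replicates 3 and 4 were the highest for Socs3 and WT MP replicate 1 the lowest, as they were for the summed immediate early genes, whose part in its rise was not tested. Csf2rb2 rose by 0.67, and its reads may be split with its close copy Csf2rb. Il6st, the signalling chain of the interleukin 6 receptor, fell from 444 ± 18.5 to 332 ± 23.3 (log2 -0.42), and Creb1, the cyclic AMP response factor, fell by 0.15 on the log2 scale. Thus both chains of the interleukin 6 receptor were lower where Stat3, Socs3 and Cebpd were higher.

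The Tribbles ligase and clients were the one list with more genes lower than higher, 5 lower and 1 higher of 12, with a median of -0.08. Cop1, the ligase that Tribbles proteins recruit, fell from 524 ± 33.2 to 477 ± 35.0 normalized counts (log2 -0.14), and the groups overlapped. Cul4a, the cullin scaffold of a larger COP1 complex, fell by 0.27 and Det1, another subunit of it, by 0.26. Map2k7, a kinase that Tribbles proteins bind, rose from 633 ± 36.2 to 722 ± 39.0 (log2 0.19). Akt1 and Akt2, bound by Trib3, did not pass the test. With DESeq2, 3 of the 12 passed.

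Among genes of the integrated stress response, the pathway of ATF4 and CHOP that also induces Trib3, 5 of 10 were higher and 0 lower, with a median of 0.09. Vldlr, a lipoprotein receptor, rose from 17.6 ± 4.82 to 88.5 ± 16.4 normalized counts (log2 2.30). Ppp1r15a, which ends the response, rose by 1.24 and Ddit4, an mTOR inhibitor, by 1.21. Ppp1r15a had the same order of libraries as the summed immediate early genes in each group, at 593, 415, 740.4 and 747 normalized counts in NA MPs and 203, 234, 273, 315 and 298 in WT MPs, and their part in its rise was not tested. Psat1, a serine synthesis enzyme, rose from 1243 ± 22.5 to 1359 ± 17.8 (log2 0.13), and Nupr1, a stress-induced chromatin protein, rose by 0.95, both named after their values were seen. Asns, Sesn2, Phgdh, Shmt2 and Mthfd2 did not pass the test, and Trib3 stayed near its floor in both groups.

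Immediate early genes, which answer signals and cell dissociation within minutes, moved together with Trib1. Of 16 tested, 15 were higher in NA MPs and 0 lower, with a median of 2.33, beside 17.9% of all tested genes called higher. This list too was chosen with earlier results of these data known. Fosb rose by 4.30, Klf2 by 3.33 and Nr4a1 by 3.14 on the log2 scale. The summed level of the list was 19751, 13632, 27884 and 29801 normalized counts in NA MP replicates 1 to 4 and 3139, 4007, 4779, 6452 and 5114 in WT MPs. NA MP replicates 3 and 4 were thus the highest for the immediate early genes and for Trib1, and WT MP replicate 1 the lowest for both. Neutrophil markers had the same extremes, with sums of 1035, 1022, 1714 and 1427 in NA MPs and 595 to 931 in WT MPs. Of 5 tested, 2 were higher (Camp and Ngp) and 1 lower (Mmp8), all of them also in the C/EBP epsilon target list. Ly6g and Retnlg did not reach the minimum for the test. Ly6g was at 0 to 3.64 normalized counts, and Retnlg at 4.86 to 6.76 in NA MPs and 0.861 to 5.13 in WT MPs. Gr1 and Mac1 were among the antigens sorted against. The part of cell dissociation, or of cells further along the neutrophil lineage, in the rise of Trib1 was not tested.

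**Figure D4:**
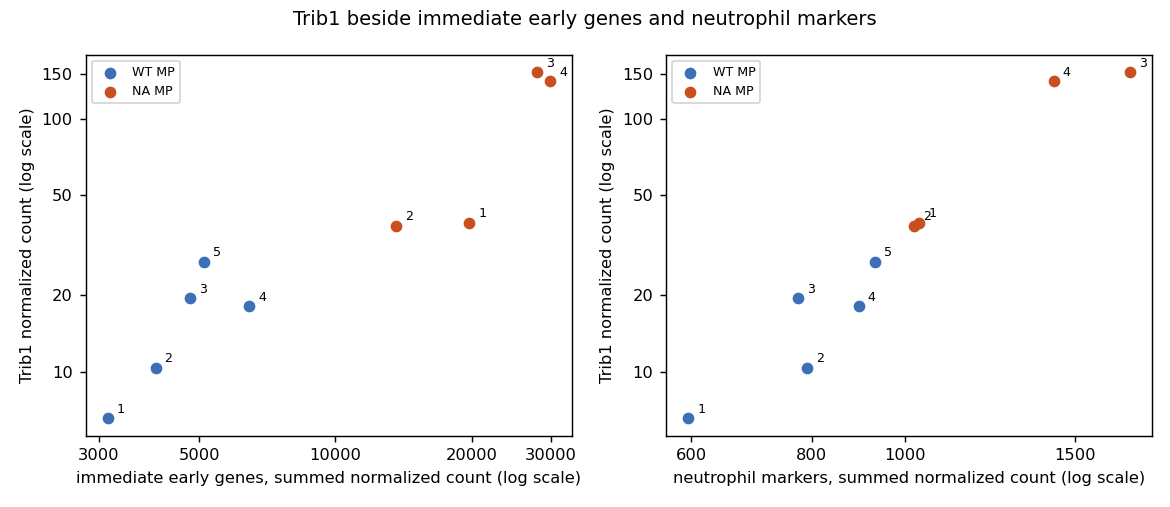
Trib1 normalized counts (vertical log axis) against the summed normalized counts of immediate early genes (left, log axis) and neutrophil markers (right, log axis), each point a library with its replicate number. NA MP replicates 3 and 4 are highest on each axis, and WT MP replicate 1 is lowest with 6.52 for Trib1, 3139 for immediate early genes and 595 for neutrophil markers.

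**Figure D5:**
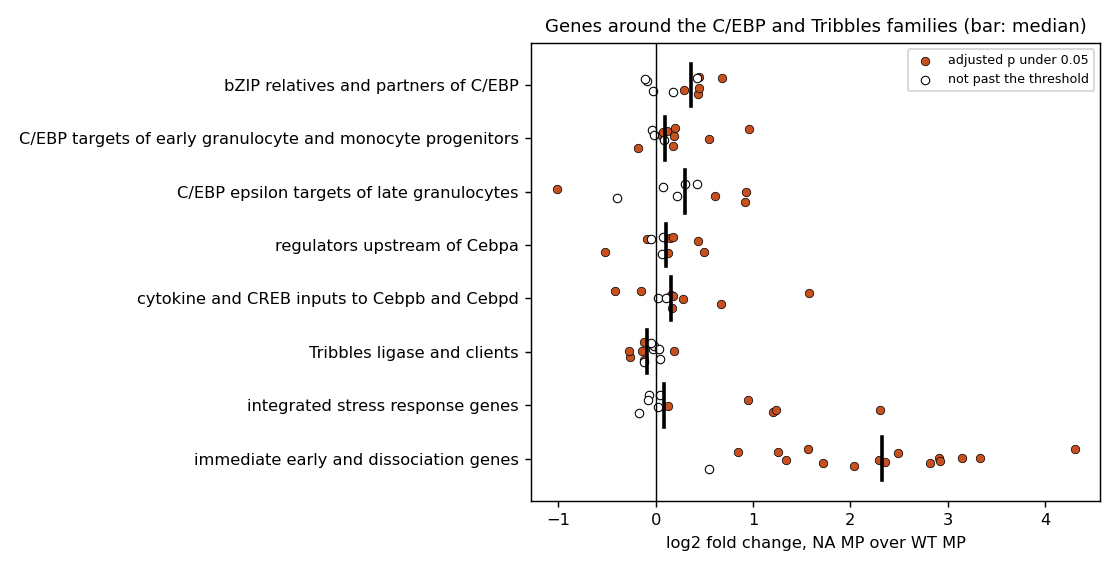
Log2 fold change of NA MPs over WT MPs (horizontal axis) for each tested gene of the 8 lists (vertical axis), filled where the adjusted p was under 0.05, with a bar for the median. The immediate early genes stand apart with a median of 2.33, and the medians of the other lists lie between -0.08 and 0.36. All lists were chosen with earlier results of these data known.

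The genes whose pattern over the 9 libraries was most like that of each called member were named by the smallest root mean square difference of centred log2 CPM, among 11691 genes compared. For Trib1 these were Nr4a1 (0.43), the chemokine gene Ccl3 (0.43) and Klf6 (0.45). Nr4a1 was at 91.1, 71.5, 311 and 341 normalized counts in NA MPs and 12.9 to 33.8 in WT MPs, Klf6 at 505 to 1435 and 156 to 208, and Ccl3 at 65.4 to 183 and 8.69 to 34.2. For Cebpd they were Pdcd7 (0.05), Pigt (0.05) and Unc45a (0.05), for Cebpe Clasp1 (0.06), Apip (0.06) and Kif1b (0.07), and for Trib2 Zfp60 (0.06), Snx14 (0.07) and Ift20 (0.07).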

How the data were processed

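RNA of sorted myeloid progenitors was sequenced in 4 NA MP and 5 WT MP samples. The deposited table is named for raw RSEM counts, and the submitters' processing notes name bcl2fastq, RSEM, DESeq2 and the mm10 build, without versions. The authors deposited RSEM expected counts, yet 97.4% to 97.7% of the positive values of each column were whole multiples of a column constant between 0.827 and 1.20. Whole meant within 0.01 of a read, with a margin that widened with the count for abundant genes. The values thus were expected counts already divided by a size factor, and the constant times the size factor that DESeq2 1.42.0 estimates was 0.999 to 1.00 in every library. Each column was divided by its constant and rounded to whole reads, and the values as deposited were an alternative added after seeing the data. All 9 columns were matched to samples by name. Gene names matched 32916 of 37980 identifiers.

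Genes were tested with edgeR 4.0.16 (R 4.3.3) after TMM normalization, with filterByExpr on the groups (minimum count 10), the robust quasi-likelihood test and Benjamini-Hochberg adjustment over all 11953 tested genes, with a threshold of 0.05 and group as the only covariate. The test was checked on simulated data. For single genes and ratios, exact permutation tests (two-sided) were run on the difference of the group means. Coordinates, exon lengths and overlaps came from GENCODE M21 (GRCm38) and promoter windows from RefSeq (GRCm38.p6). Other normalizations, filters and thresholds, DESeq2, unrounded counts, a replicate block and leaving out each library were alternatives.

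The members, gene lists and marker lists were chosen with earlier results of these data known. All members were named, and of each list the 3 genes with the largest rise and the 3 with the largest fall on the log2 scale among those past the threshold, markers under discussion, and for each called member the 3 genes nearest to it in pattern, among genes with an average log2 CPM of at least 1.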

Additional observations from a re-analysis of the deposited data

Results flagged for a closer look

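In 11 of 146 groups of libraries examined, the highest or lowest library stood far from the others (Dixon's criterion), where chance gives about 7.3. Among members this was Cebpa in NA MP replicate 2, at 1457 normalized counts beside 1314 to 1330.2 in the other NA libraries, and that library also had the highest Cebpe among NA MPs. Among NA MPs, replicate 1 was high for Gata2 at 1862 and Tal1 at 593, and low for the summed T cell markers at 46.1 normalized counts. This sum was mostly Lck, at 41.3, with Cd3e and Cd3g at 0 in all libraries, and WT MPs had 9.47 to 15.1. In NA MP replicate 3 Map2k7 was low at 664 and Cop1 high at 529. In WT MP replicate 1, Il6ra was low at 435, Camp low at 109.75, Etv6 low at 2135 and Det1 high at 199, and in WT MP replicate 4 Il6st was high at 476. WT MP replicate 1, which also had the fewest reads of Trib1, thus held 4 of the 11 and NA MP replicate 1 held 3.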

How the results depend on the processing

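The count of 4 members past the threshold ran from 1 to 4 when each library was left out. It was 2 without NA MP replicate 4 and 1 without WT MP replicate 2, 1 of 9 tested with DESeq2 (Trib1) and 1 at a threshold of 0.01 (Cebpd). It was 4 with RLE size factors, library size only, no filter, no robust option, unrounded counts and the values as deposited, the last chosen after seeing the data, and 3 of 7 tested with at least 10 counts in every sample, where Trib1 was not tested. Over all genes 4078 passed, 3043 with DESeq2, 2886 at 0.01, 4305 with no filter, 4093 with the values as deposited and 3638 to 3959 with each library left out. Cebpg ran from -0.0021 to 0.060 on the log2 scale with each library left out, and the lowest value, a reversal, came from leaving out WT MP replicate 4 (edgeR adjusted p = 0.984). The log2 difference of Cebpe to Cebpa ran from -0.212 to -0.088 and lost its call without each of 8 of the 9 libraries, all but NA MP replicate 2. With fewer libraries the smallest p that the exact test can give is larger, and the cause of the loss was not tested. The log2 difference of Cebpb to Cebpa ran from 0.083 to 0.264 and passed without NA MP replicate 1 (exact adjusted p = 0.0446). The depth limits Trib3 (0 to 6 reads) and Trib1 in WT MPs.

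Over all tested genes, same-numbered libraries of the groups did not deviate together (correlations of deviations from -0.02 to 0.05). A value pooled over all genes cannot exclude a pairing that shows in single genes. With the replicate number as a block over replicates 1 to 4, 3724 genes and 4 members passed, beside 3711 and 4 for the same 8 libraries without the block. For Trib1 the block narrowed the error, with a log2 fold change of 2.73 ± 0.19 (SE), beside 2.79 ± 0.75 without it. Its edgeR adjusted p was 6.3e-28 with the block and 0.0327 without it. The block rests only on the replicate numbers in the sample titles, and no label says that same-numbered libraries belong together. With 8 libraries, the p-value of the block fit depends heavily on the spread that edgeR borrows from other genes.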
